A study of Mus musculus with 10 samples.

Results

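The phagocyte NADPH oxidase was followed through 6 of its genes, *Cybb*, *Cyba*, *Ncf1*, *Ncf4*, *Rac2* and *Hvcn1*, which were picked by name as genes of this enzyme and its proton channel and matched to the Ensembl identifiers of the count table. These genes and the gene lists used below were chosen with earlier results of these data known, so the choice was not independent of the data. All 6 oxidase genes were found among 56884 genes, and all 6 passed the filter on low counts that left 17622 genes to test. Bulk RNA-seq was done on the hippocampus of 10 ovary-intact female P301S mice, a tauopathy line also called PS19 that carries mutant human Tau driven by the mouse *Prnp* promoter. Every mouse carried the transgene and received SILASTIC tubing under the skin from 6 months of age for 12 weeks: 5 mice had a void implant, and 5 had a 10 mm implant of DHT (dihydrotestosterone), an androgen that aromatase cannot turn into estrogen. Tissue was taken at 9 to 9.5 months. No mouse without the transgene, no male and no sorted cell is in these data, so the comparison asks how the oxidase genes differed between DHT and void implants within female tauopathy hippocampus.

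The oxidase is a multi-subunit enzyme of phagocytes, including microglia, that passes electrons from NADPH across a membrane to oxygen and so makes superoxide. The catalytic subunit gp91phox (NOX2, from *Cybb*) sits in the membrane with p22phox (from *Cyba*), and the pair becomes active once cytosolic proteins, among them p47phox (*Ncf1*), p40phox (*Ncf4*) and a Rac GTPase, join it. The voltage-gated proton channel encoded by *Hvcn1* lets protons follow the electrons and keeps the enzyme running. In the brain, the complex is known mainly from microglia, where phagocytic receptors trigger it.

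Promoter sequence was on hand for 3 of the 6 genes, and it is shown because transcription of the oxidase genes is known to be set by myeloid and interferon-responsive factors at their promoters. Each line gives the 250 bases before the transcript start, 5′ to 3′ in the direction of the gene, from RefSeq on GRCm38.p6; all 3 genes lie on the minus strand, *Cybb* at chrX:9469325-9469574, *Ncf1* at chr5:134229626-134229875 and *Cyba* at chr8:122432941-122433190. Capitals mark matches on either strand to GAAANNGAA, the core of an interferon response element.
Cybb: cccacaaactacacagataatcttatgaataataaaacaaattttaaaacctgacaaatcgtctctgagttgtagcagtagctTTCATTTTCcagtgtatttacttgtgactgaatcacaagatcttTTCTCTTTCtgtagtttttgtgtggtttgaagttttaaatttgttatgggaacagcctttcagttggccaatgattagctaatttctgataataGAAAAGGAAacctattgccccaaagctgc
Ncf1: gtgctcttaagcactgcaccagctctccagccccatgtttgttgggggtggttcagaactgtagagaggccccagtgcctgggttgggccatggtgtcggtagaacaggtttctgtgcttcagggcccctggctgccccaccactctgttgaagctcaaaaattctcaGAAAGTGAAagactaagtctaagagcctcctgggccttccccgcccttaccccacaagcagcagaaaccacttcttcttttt
Cyba: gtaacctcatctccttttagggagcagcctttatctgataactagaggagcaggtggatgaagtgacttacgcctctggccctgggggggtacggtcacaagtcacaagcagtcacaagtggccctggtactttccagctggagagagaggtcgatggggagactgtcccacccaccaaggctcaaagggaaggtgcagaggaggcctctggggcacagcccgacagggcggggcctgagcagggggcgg
The *Cybb* window held 3 matches, beginning 167, 123 and 29 bases before the start, and the *Ncf1* window held 1, beginning 82 bases before it. The *Cyba* window held 0 matches. Of 32851 mouse promoter windows of this length, 7.13% held at least 1 match. The sequence GAGGAA, a form of the PU.1 site found in 23.3% of all windows, had 0 matches in each of the 3 windows on either strand. The nuclear receptor core AGGTCA, found in 14.0%, also had 0. Only these exact letters were searched, so other forms of either site were not covered and the 0 does not show that a site is absent. None of the matches overlapped another, and a match in letters does not show that a factor binds.

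Libraries held between 27188854 and 47113661 counts. Levels are given as CPM, the reads of a gene scaled to a fixed library total after TMM normalization, with the mean ± SD over 5 mice. A gene was called when the adjusted p of edgeR's quasi-likelihood test, corrected by Benjamini-Hochberg over all 17622 genes, was under 0.05. All 6 oxidase genes were called higher with DHT, where 5.22% of all genes tested were called higher. Of the 6, 4 also passed a log2 fold change of 1, a limit that 2.17% of all genes passed, and for 5 of the 6 every DHT mouse lay above every void mouse, which held for 5.39% of all genes. Their log2 fold changes ran from 0.75 to 2.62 with a median of 1.23, while the median over all genes tested was 0.0094. In bulk tissue, more cells of a type and more RNA per cell cannot be told apart. The labels carry a number after the letter S, 4 to 11 in void libraries and 18 to 23 in DHT libraries. What this number stands for is not given in the sources used here. If it is the order of the libraries, that order separates the groups in the same way as the treatment.

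**Figure D1:**
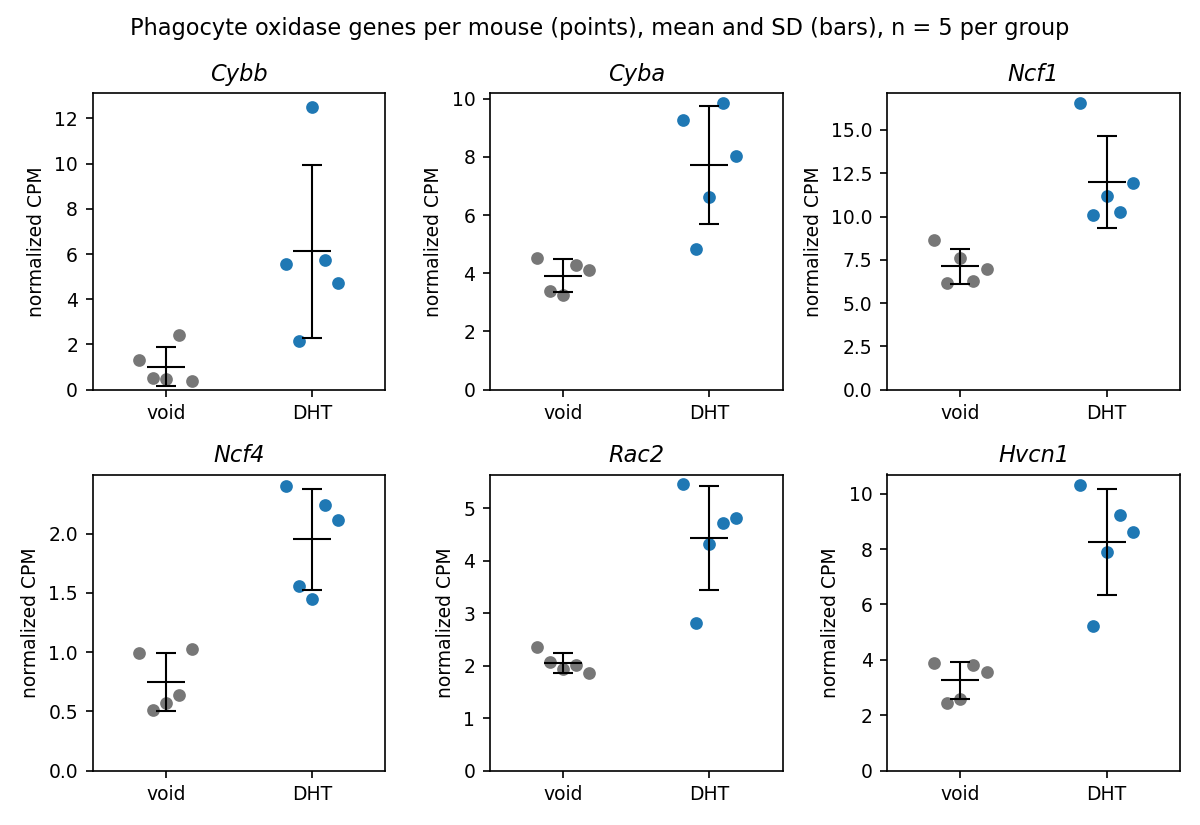
Normalized CPM (y axis, from 0) of each of the 6 oxidase genes in void and DHT mice; points are mice, the horizontal mark is the mean and the bar the SD of 5 mice. The groups overlap only for *Cybb*, where 1 DHT mouse at 2.15 CPM lies below the highest void mouse at 2.40 CPM.

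*Cybb*, the catalytic subunit, had the largest fold change of the 6 and the widest spread. Its level in void mice was 1.29, 0.509, 0.486, 2.40 and 0.403 CPM in replicates 10, 11, 4, 5 and 9. In DHT mice it was 5.55, 2.15, 12.5, 5.72 and 4.70 CPM in replicates 1, 2, 3, 5 and 6. DHT replicate 3 held more than any other mouse, and DHT replicate 2 stayed below void replicate 5. The mean was 1.02 ± 0.851 CPM in void and 6.12 ± 3.83 CPM in DHT mice, a log2 fold change of 2.62 (SE 0.54, adjusted p = 0.0170 by edgeR). A two-sided exact permutation test of the single gene gave p = 0.0159. These levels rest on few reads in void mice, 13 to 75 per library, against 87 to 596 in DHT mice. The call was lost without void replicate 11 (log2 fold change 2.42, adjusted p = 0.0584 by edgeR) and without void replicate 4 (2.42, adjusted p = 0.0517). It was kept (2.75, SE 0.40, adjusted p = 0.0352 by edgeR) when both void replicate 5 and DHT replicate 3 were left out. Both mice were picked for having the most *Cybb* in their group, which narrows the spread, so this fit does not test how firm the call is.

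*Cyba*, whose product p22phox stabilizes gp91phox and docks p47phox, was measured at 4.54, 3.39, 3.26, 4.28 and 4.13 CPM in void replicates 10, 11, 4, 5 and 9. The DHT replicates 1, 2, 3, 5 and 6 held 9.26, 4.84, 6.62, 9.85 and 8.04 CPM. The lowest DHT mouse was replicate 2, just above the highest void mouse. The mean rose from 3.92 ± 0.566 to 7.72 ± 2.03 CPM, with a log2 fold change of 0.98 (SE 0.19, adjusted p = 0.0124 by edgeR). The exact permutation test gave p = 0.00794, the smallest that 5 against 5 mice allow. The membrane pair did not keep its proportion: *Cybb* minus *Cyba* on the log2 CPM scale was -2.20 ± 0.921 in void and -0.50 ± 0.809 in DHT mice, a difference of 1.70 (two-sided exact permutation p = 0.0159; of 15 such pairs among the 6 genes, 8 had an unadjusted p under 0.05).

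Of the cytosolic subunits, *Ncf1* (p47phox, the organizer whose phosphorylation starts assembly) had the highest CPM of the 6 genes and the smallest fold change. Void replicates 10, 11, 4, 5 and 9 held 8.63, 6.17, 7.61, 6.30 and 6.98 CPM of *Ncf1*. DHT replicates 1, 2, 3, 5 and 6 held 16.6, 10.1, 11.2, 10.2 and 11.9 CPM. DHT replicate 1 stood above the other four, and no DHT mouse reached down to the void range. The mean rose from 7.14 ± 1.02 to 12.0 ± 2.66 CPM (log2 fold change 0.75, SE 0.15, adjusted p = 0.0142 by edgeR; exact permutation p = 0.00794). The call was lost without void replicate 11 (log2 fold change 0.68, adjusted p = 0.0591 by edgeR) and without void replicate 5 and DHT replicate 3 together (0.70, adjusted p = 0.0676). *Ncf1* overlaps *Gtf2ird2* on the other strand in GENCODE M21, and since the strand setting of the counting is not given, reads of the overlap could belong to either; *Gtf2ird2* itself was at 16.7 CPM in void and 15.5 CPM in DHT mice and was not called (log2 fold change -0.11, adjusted p = 0.542 by edgeR).

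*Ncf4* (p40phox, which binds a phagosome lipid and keeps the enzyme active on phagosomes) was the least abundant of the cytosolic subunits. Its void levels were 0.996, 0.509, 0.571, 0.639 and 1.02 CPM in replicates 10, 11, 4, 5 and 9. Its DHT levels were 2.40, 1.55, 1.45, 2.24 and 2.11 CPM in replicates 1, 2, 3, 5 and 6. The groups did not overlap, although each void library held only 17 to 33 reads of the gene. The mean rose from 0.748 ± 0.244 to 1.95 ± 0.428 CPM, a log2 fold change of 1.39 (SE 0.24, adjusted p = 0.00965 by edgeR; exact permutation p = 0.00794). DHT replicate 3, the mouse with the most *Cybb*, had the least *Ncf4* of the DHT group.

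*Rac2*, the Rac GTPase of blood-lineage cells, was measured at 2.36, 2.07, 1.94, 2.01 and 1.86 CPM in void replicates 10, 11, 4, 5 and 9. DHT replicates 1, 2, 3, 5 and 6 held 5.46, 2.81, 4.31, 4.73 and 4.82 CPM. Void mice were tightly grouped, and replicate 2 was again the lowest of the DHT group. The mean rose from 2.05 ± 0.191 to 4.43 ± 0.993 CPM (log2 fold change 1.11, SE 0.17, adjusted p = 0.00761 by edgeR; exact permutation p = 0.00794). Neither of the other Rac genes was called: *Rac1* had a log2 fold change of 0.048 (adjusted p = 0.693 by edgeR) and *Rac3* of 0.030 (adjusted p = 0.955). Per kilobase of exon, *Rac1* stood at 70.7 ± 3.06 CPM in void and 73.1 ± 1.47 in DHT mice, far above *Rac2* at 0.661 ± 0.0614 and 1.43 ± 0.320. *Rac2* made up 0.842% of the per-length level of the 3 Rac genes in void mice and 1.74% in DHT mice. These levels come from all cells of the tissue, so the share does not tell which Rac serves the oxidase in microglia.

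*Hvcn1*, the proton channel, held 3.87, 2.46, 2.58, 3.80 and 3.57 CPM in void replicates 10, 11, 4, 5 and 9. In DHT replicates 1, 2, 3, 5 and 6 it held 10.3, 5.23, 7.90, 9.25 and 8.63 CPM. Every DHT mouse was above every void mouse, with replicate 2 lowest. The mean rose from 3.26 ± 0.685 to 8.26 ± 1.91 CPM, a log2 fold change of 1.35 with the lowest adjusted p of the 6 genes (SE 0.19, adjusted p = 0.00670 by edgeR; exact permutation p = 0.00794). *Hvcn1* overlaps *Tctn1* on the other strand, and *Tctn1* was not called (16.6 CPM in void and 19.5 CPM in DHT mice, log2 fold change 0.23, adjusted p = 0.222 by edgeR). *Cyba* likewise overlaps the annotated gene *Gm20388* on the other strand.

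Between genes, levels were compared as CPM per kilobase of exon (GENCODE M21 exons joined per gene). The order in void mice was *Cyba* (3.77 ± 0.545), *Ncf1* (1.95 ± 0.277), *Hvcn1* (0.914 ± 0.192), *Rac2* (0.661 ± 0.0614), *Ncf4* (0.370 ± 0.121) and *Cybb* (0.175 ± 0.146). In DHT mice it was *Cyba* (7.43 ± 1.96), *Ncf1* (3.28 ± 0.727), *Hvcn1* (2.32 ± 0.536), *Rac2* (1.43 ± 0.320), *Cybb* (1.05 ± 0.660) and *Ncf4* (0.967 ± 0.212). The order of the first 4 among themselves was the same in both groups and held within all 5 mice of each. The place of *Cybb* was not settled: *Ncf4* was above *Cybb* in 4 of 5 void mice, and *Cybb*, although higher on the mean of DHT mice, was above *Ncf4* in only 1 of the 5, and *Rac2* was above *Cybb* in 4 of 5.

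**Figure D2:**
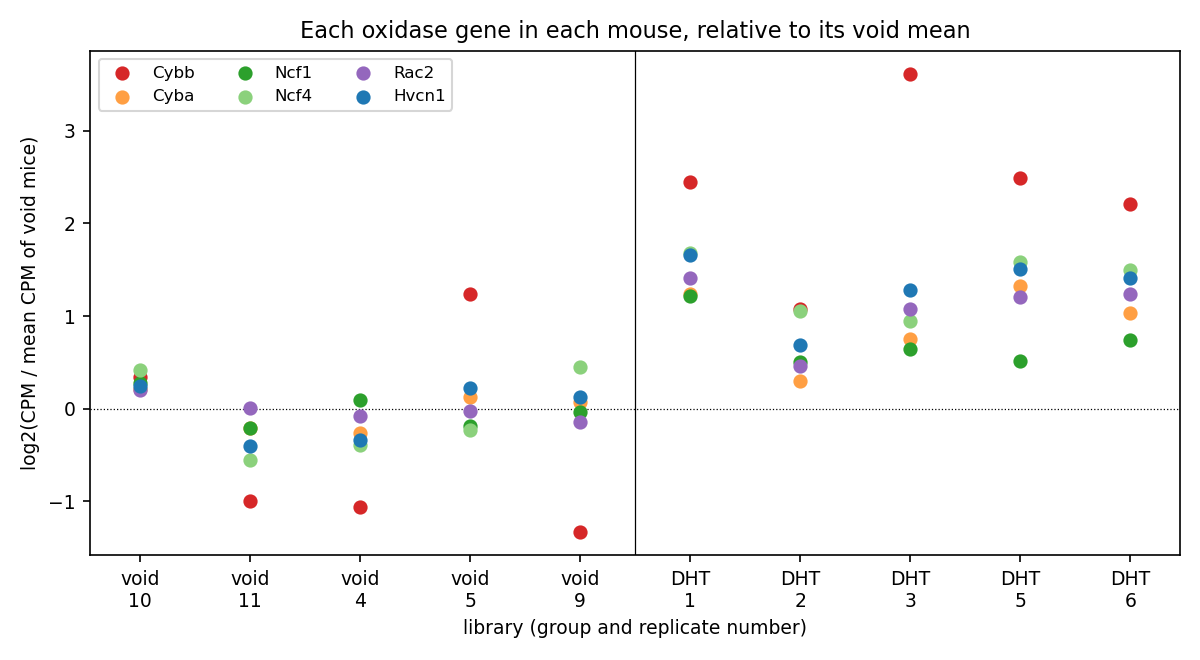
Log2 of the CPM of each oxidase gene over its mean in void mice (y axis) in each of the 10 libraries (x axis, group and replicate number); 1 point per gene and mouse, and the dotted line is the void mean. Of the DHT mice, replicate 2 has the lowest *Cybb*, *Cyba*, *Ncf1*, *Rac2* and *Hvcn1* and replicate 3 the lowest *Ncf4*. *Cybb* lies above the other 5 in void replicate 5 and in all 5 DHT mice, by most in DHT replicate 3, and below them in void replicates 11, 4 and 9.

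The 6 genes varied together among mice of a group to very different degrees. After the mean of each group was subtracted, Pearson's r of log2 CPM over the 10 libraries ran from 0.0027 to 0.94 among 15 pairs. It was 0.94 for *Cyba* and *Hvcn1*, 0.84 for *Cyba* and *Rac2* and 0.78 for *Rac2* and *Hvcn1*. *Cybb* had an r of 0.61 with *Hvcn1*, 0.50 with *Rac2*, 0.47 with *Cyba*, 0.10 with *Ncf1* and 0.0027 with *Ncf4*. All pairs share libraries and depth, and r is given as a description. The 5 tested genes whose pattern across mice was most like that of *Cybb* were *1700086O06Rik* (r 0.96), *Tdgf1* (0.95), *Gm5112* (0.95), *Rnf207* (0.95) and *Col16a1* (0.94), again over 10 libraries and after subtracting group means. None of these 5 was called between the groups, with log2 fold changes between -0.34 and 0.41.

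Homeostatic microglia genes were also higher in DHT mice, so the oxidase genes were set against them within each library. Of 11 such genes reported here, 3 were called higher, among them *Csf1r* (the receptor microglia need to survive, log2 fold change 0.55, adjusted p = 0.00965 by edgeR) and *Cx3cr1* (the fractalkine receptor, 0.54, adjusted p = 0.0251), while *P2ry12* (an ADP receptor) had 0.16 (adjusted p = 0.479) and *Sall1* (a transcription factor of microglia) 0.30 (adjusted p = 0.127), and neither was called. Over all genes tested, 5.22% were called higher. At an unadjusted p under 0.05 by edgeR, 9 of the 11 were higher, where 2316 of all 17622 genes were. All 11 had a positive fold change. The mean log2 CPM of the whole homeostatic list of 12 was 4.98 ± 0.0713 in void and 5.40 ± 0.177 in DHT mice, a difference of 0.42 with no overlap (two-sided exact permutation p = 0.00794). Relative to that mean, each oxidase gene was still higher in DHT mice: *Cybb* by 2.21 (exact permutation p = 0.0159), *Cyba* by 0.52 (exact p = 0.0317), and *Ncf4* by 0.93, *Hvcn1* by 0.90, *Rac2* by 0.64 and *Ncf1* by 0.31 on the log2 scale (exact permutation p = 0.00794 for each of these 4; 6 single genes tested, not adjusted). Set against *Csf1r*, *Aif1* and *Itgam* instead, *Cyba* differed by 0.30 (exact permutation p = 0.0952) and *Ncf1* by 0.10 (exact p = 0.397), so these 2 did not pass with that reference.

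**Figure D3:**
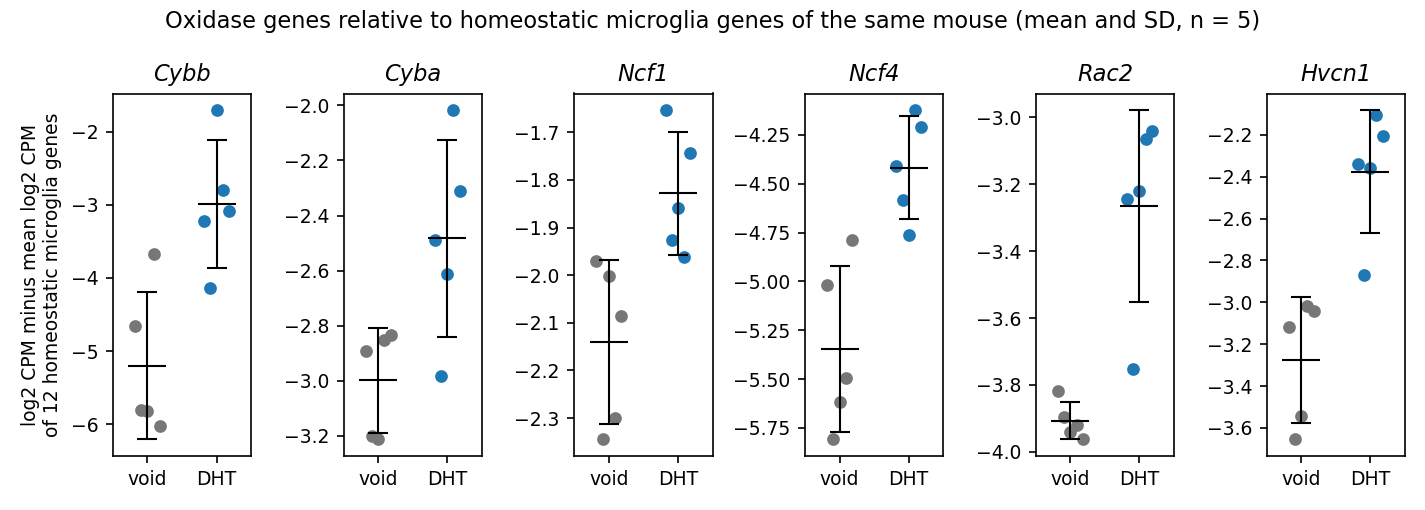
Log2 CPM of each oxidase gene minus the mean log2 CPM of 12 homeostatic microglia genes in the same mouse (y axis, its own range in each panel); points are mice, marks and bars the mean and SD of 5. Void and DHT mice do not overlap for *Ncf1*, *Ncf4*, *Rac2* and *Hvcn1*, and 1 DHT mouse lies within the void range for *Cybb* and for *Cyba*.

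Markers of other cell types were read in the same libraries. Of 10 neutrophil genes, 0 passed the filter on low counts, and their summed level was 0.248 to 1.14 CPM in void and 0.173 to 0.958 CPM in DHT mice. Of 6 monocyte genes, 2 were tested, and of 7 border-associated macrophage genes, 6 were tested; edgeR and DESeq2 called 0 of either, and 0 had an unadjusted p under 0.05. The monocyte sum was 0.383 to 1.92 CPM in void and 0.964 to 1.79 CPM in DHT mice, and the macrophage sum 2.39 to 15.5 and 5.30 to 12.1 CPM. Of 10 lymphocyte genes 0 passed the filter; their sum was 0.221 to 0.607 CPM in void and 0.617 to 1.21 CPM in DHT mice, with no overlap and at most 14 reads of any of these genes in a library, and the part of lymphocytes in the oxidase values was not tested. Neither tool called any of 8 neuron, 6 oligodendrocyte or 6 endothelium genes (1, 2 and 0 at an unadjusted p under 0.05), and of 6 astrocyte genes 1 was called, *Gfap*, with 3 higher at that unadjusted limit. Choroid plexus genes moved with the groups: all 12 had a positive fold change, and 4 were called higher, where 5.22% of all genes tested were. DESeq2 called 5 higher, and all 12 were higher at an unadjusted p under 0.05 by edgeR, where 2316 of all 17622 genes were. In 9 of the 12, every DHT mouse was above every void mouse, which held for 5.39% of all genes. Their sum was 116 to 1906 CPM in void and 2180 to 3124 CPM in DHT mice. With the homeostatic microglia mean or the choroid plexus mean as a covariate, edgeR called 0 genes of any kind, and of the oxidase genes 1 and 5 respectively had an unadjusted p under 0.05; all 6 fold changes stayed positive, but *Ncf1* was at 0.073 with the microglia covariate and *Cybb* at 3.96 with the choroid plexus covariate. The part of choroid plexus content in the oxidase values was not tested.

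Around the 6 genes, 94 further genes of the pathway were tested out of 106 reported here by role. Of these, 23 were called higher, where 5.22% of all genes were, and 7 of them had a log2 fold change above 1, where 2.17% of all genes did, and the median log2 fold change of the 94 was 0.26. The 23 fell to 11 without void replicate 11, 15 without void replicate 4, 12 without DHT replicate 1 and 13 without DHT replicate 3. None was called lower by edgeR or DESeq2, with 3 at an unadjusted p under 0.05 in that direction, where edgeR called 0.261% of all genes lower.

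Among 5 partners of the complex reported here, edgeR and DESeq2 called 0, and 0 had an unadjusted p under 0.05. Their log2 fold changes ran from 0.048 for *Rac1* to 0.24. Of 9 genes of the other NADPH oxidases, only *Noxo1* and *Duox2* had enough reads to test, and neither was called (log2 fold change 0.24, adjusted p = 0.588 for *Noxo1* by edgeR); *Nox1*, *Nox3* and *Nox4* had at most 11 reads in any library.

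Receptors and kinases set off the oxidase. The counts of called genes given here stand beside 5.22% of all genes tested that were called higher. Of 11 trigger receptors tested, 6 were called higher: *Clec7a* (dectin-1, a receptor for fungal glucans) from 1.25 ± 1.21 to 12.2 ± 5.73 CPM (log2 fold change 3.36, adjusted p = 0.00990 by edgeR), *Tlr2* (a Toll-like receptor for lipoproteins) by 1.96 (adjusted p = 0.00761), *Itgb2* (the integrin chain of complement receptor 3) by 1.10 (adjusted p = 0.00990), and *Fcgr1*, *Fcer1g* and *Fcgr3*. DESeq2 called 8 genes of this list higher, where it called 1221 of 20917 genes. At an unadjusted p under 0.05 by edgeR all 11 were higher, where 2316 of all 17622 genes were. *P2rx7*, an ATP-gated channel with the highest mean level of the list over all 10 mice (13.7 CPM in void and 16.7 CPM in DHT mice), was not called (log2 fold change 0.29, unadjusted p = 0.0145, adjusted p = 0.139 by edgeR). *Clec7a* is among the genes the study itself named from these mice. Of 13 kinases and lipid-signalling enzymes that activate the complex and are reported here, 4 were called: *Fgr* from 0.211 ± 0.147 to 1.65 ± 0.741 CPM (log2 fold change 3.003, adjusted p = 0.00761 by edgeR), *Btk* by 0.94 (adjusted p = 0.0289) and *Pik3cg* by 0.63 (adjusted p = 0.0303), with *Lyn*. When each mouse was left out in turn, *Fgr* kept its call in 10 of 10 fits, *Btk* in 5 (adjusted p up to 0.0877 by edgeR) and *Pik3cg* in 3 (up to 0.107). The 2 largest folds rest on low void levels, 0.0931 to 0.447 CPM for *Fgr* and 0.210 to 3.21 CPM for *Clec7a*. Neither gene could be tested under the filter of at least 10 counts in every library. *Fgr* and *Lyn* are kinases of the Src family that act downstream of integrins and Fc receptors. *Prkcb*, a protein kinase C that phosphorylates p47phox and the most abundant of the 13 at 653 and 613 CPM, was not called (-0.092, adjusted p = 0.455).

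Of 10 regulators of the Rac switch, 3 were called higher: *Dock2* (log2 fold change 0.95, adjusted p = 0.00761 by edgeR) and *Vav1* (0.78, adjusted p = 0.0222), exchange factors that load Rac with GTP in leukocytes, and *Arhgdib* (0.47, adjusted p = 0.0148), which holds Rac in the cytosol. *Arhgdia*, its widely expressed relative, was not called (0.11, adjusted p = 0.652). *Dock2* kept its call in 10 of 10 fits that left out 1 mouse, *Arhgdib* in 7 and *Vav1* in 5. Over all genes tested, 5.22% were called higher. Of the transcription factors that act on oxidase genes, 5 of 9 tested were called: *Irf8* (log2 fold change 1.18, adjusted p = 0.00670 by edgeR), *Spi1* (PU.1, 0.88, adjusted p = 0.0166), *Runx1* (0.86, adjusted p = 0.0332), *Cebpa* (0.45, adjusted p = 0.0299) and *Nfkb1* (0.33, adjusted p = 0.0117). With 1 mouse left out, *Irf8* kept its call in 10 of 10 fits, *Nfkb1* in 9, *Spi1* in 8 and *Runx1* in 2 (adjusted p up to 0.111 by edgeR). *Nfkb1* is also a gene the study chose to show from these libraries, along with *Rela* and *Apoe*. *Rela*, which is in the same list of transcription factors, was not called here after correction over all genes (log2 fold change 0.33, unadjusted p = 0.0147, adjusted p = 0.140 by edgeR). The study compared these as single genes by Welch's t-test on normalized counts, so the limits differ.

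NADPH is the electron donor of the reaction. Of 9 genes listed under NADPH supply, not all of which make it themselves, edgeR and DESeq2 called 0, with 2 higher at an unadjusted p under 0.05. By edgeR, 2316 of all 17622 genes were higher and 743 lower at that unadjusted limit. All 9 supply genes had a positive fold change, as did 52.36% of all genes tested. In 3 of the 9, every DHT mouse was above every void mouse, which held for 5.39% of all genes. Few calls can be looked for in so short a list, given the 5.22% over all genes. *Tkt* (transketolase), the most abundant, had a log2 fold change of 0.11 (adjusted p = 0.691 by edgeR). Of 7 genes of proton and charge movement tested, both tools called 0, with 3 higher and 1 lower at an unadjusted p under 0.05; *Atp6v1b2*, a subunit of the vacuolar proton pump, was at -0.040 (adjusted p = 0.822 by edgeR). Of 21 antioxidant genes, 4 were called higher: *Nqo1* (a quinone reductase, log2 fold change 1.07, adjusted p = 0.00761 by edgeR), *Hmox1* (heme oxygenase, 0.76, adjusted p = 0.0106), *Nfe2l2* (NRF2, a transcription factor of antioxidant genes, 0.56, adjusted p = 0.0133) and *Cat* (catalase, 0.30, adjusted p = 0.0265). DESeq2 called 7 higher, and 10 were higher at an unadjusted p under 0.05 by edgeR. The other 17 were not called by edgeR, among them *Gclc* (0.014, adjusted p = 0.935), *Gclm* (-0.014, adjusted p = 0.952) and *Srxn1* (-0.033, adjusted p = 0.857). Whether NRF2 acted on any of these genes was not tested. *Sod2*, the mitochondrial superoxide dismutase, was at -0.12 (adjusted p = 0.310). Of 7 other oxidant-making enzymes tested, 1 was called, *Aox1* (0.52, adjusted p = 0.0481), where 5.22% of all genes were called; its call was lost with DESeq2 size factors (adjusted p = 0.0664 by edgeR), with library size alone (0.0506) and in 8 of 10 fits that left out 1 mouse, and neuronal nitric oxide synthase *Nos1* was at -0.20 (adjusted p = 0.251).

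**Figure D4:**
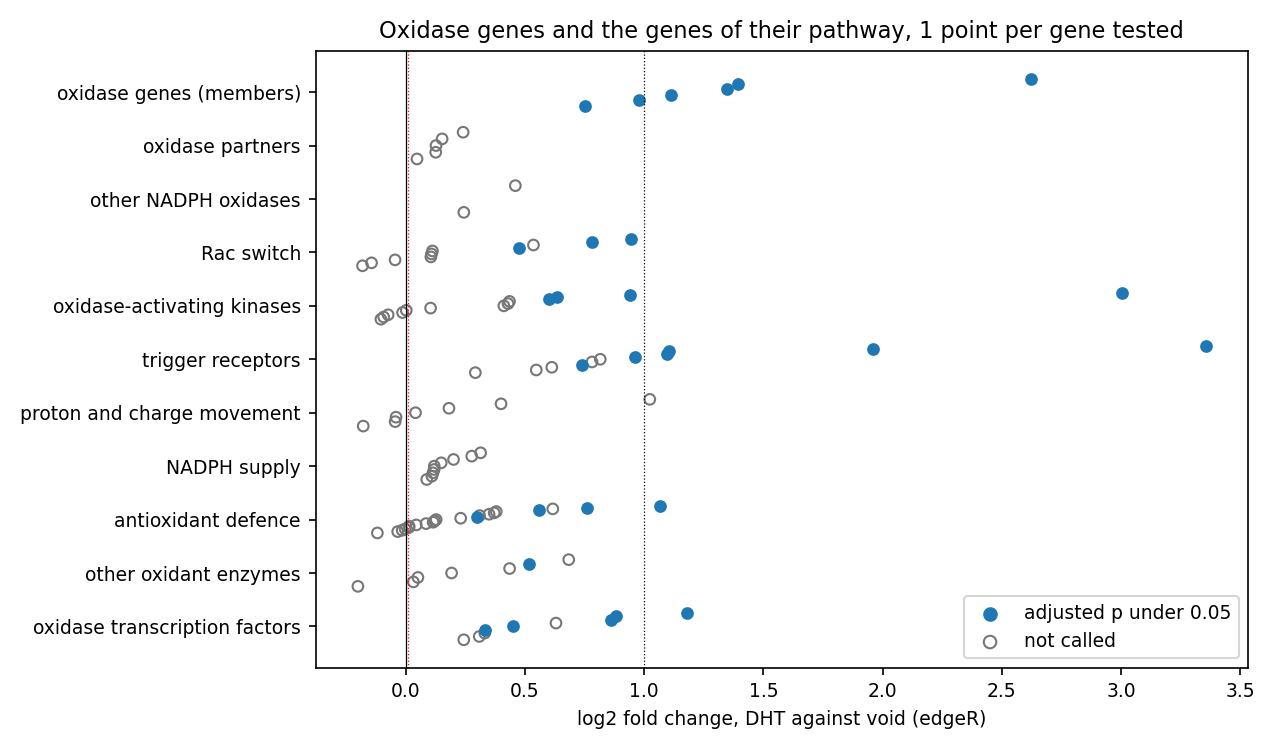
Log2 fold change of DHT against void (x axis, edgeR) for the 6 oxidase genes (top row) and the tested genes of 10 lists by role; filled points were called at adjusted p under 0.05, open points were not, the dotted black line marks a log2 fold change of 1 and the dotted red line the median of all genes tested (0.0094). Called genes number 6 among the trigger receptors, 4 among the kinases and 5 among the transcription factors, and 0 in NADPH supply and in proton and charge movement. Over all genes tested, 5.22% were called higher.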

How the data were processed

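Bulk RNA-seq of hippocampus from 5 void and 5 DHT female P301S mice was read from a gene count table. The deposited counts were made by the authors with HTStream for read clean-up and STAR 2.7.10b for alignment. The study's methods name mm10, and the submitters' processing notes name mm39 and GRCm39; annotation release, counter, strand setting and multi-read handling are not given in the sources used here. The count of each gene is a whole number of reads, not normalized.

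Counts were filtered with filterByExpr, TMM-normalized and tested with edgeR 4.0.16 (R 4.3.3); SE is the log2 fold change over the root of F. Single genes were tested by exact permutation of log2 CPM (prior count 2). DESeq2 1.42.0, other scalings and filters, covariates and omitted libraries were alternatives, and both count models were first run on simulated data with known changes. Of the listed genes, 3 are not reported here and are left out of the list counts. The members and lists were chosen with earlier results of these data known. Named in each list were up to 3 called genes by fold per direction and the most abundant gene; others were named after their values were seen. P-values measure the spread between these libraries. Figures used Python 3.11.15 and matplotlib 3.10.9.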

Additional observations from a re-analysis of the deposited data

Results flagged for a closer look

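Of 26 groups of 5 mice examined for a mouse far from the rest, 3 held one, where chance alone gives about 1.3. In *Ncf1*, DHT replicate 1 was the highest at 16.6 CPM, with the next at 11.9, so that its gap took up 0.718 of the range of the DHT mice. Relative to homeostatic microglia genes, *Rac2* in DHT replicate 2 was the lowest at -3.75 on the log2 scale, with the next at -3.25, a gap of 0.713 of the range. In the mean log2 CPM of homeostatic microglia genes, DHT replicate 1 was the highest at 5.71, with the next at 5.35, a gap of 0.825 of the range.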

How the results depend on the processing

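All 6 oxidase genes were called under DESeq2, DESeq2 size factors, library size alone, no filter beyond 1 count, and at least 10 counts in every library. Over all genes, 46 were called lower by edgeR and 224 by DESeq2. No paired analysis was run because the labels do not link any void mouse to a DHT mouse. The study reports that littermates were randomized to treatment and that housing was by treatment group. Litter and cage are not in the labels, and shared housing cannot be told apart from treatment. With the homeostatic microglia or the choroid plexus covariate, the genes called higher, those past the fold limit, the oxidase genes called (also past the fold limit) and the pathway genes called each fell to 0. Log2 fold changes with the microglia covariate were 2.22 for *Cybb*, 0.52 for *Cyba*, 0.073 for *Ncf1*, 0.96 for *Ncf4*, 0.56 for *Rac2* and 0.81 for *Hvcn1*, and with the choroid plexus covariate 3.96, 0.94, 0.51, 0.94, 1.14 and 1.25. Both covariates differ between the groups; the cause was not tested. Turning in sign with the microglia covariate were *Btk* (-0.029), *Pik3cg* (-0.036), *Cx3cr1* (-0.10), *P2ry12* (-0.13), *Nos1* (0.14) and *Atp6v1b2* (0.12), and with the choroid plexus covariate *Atp6v1b2* (0.061) and *Tkt* (-0.022). *Cx3cr1* and *P2ry12* belong to the list whose mean is the microglia covariate, so their turn in sign cannot be read as a result.

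Leaving out each mouse in turn gave 351 to 1072 genes called higher, 175 to 513 past the fold limit, 4 to 6 oxidase genes, 3 to 5 of them past the fold limit, and 11 to 30 pathway genes (lowest without void replicate 11). The log2 fold change ranged from 2.15 to 3.23 for *Cybb* and from 0.57 to 0.83 for *Ncf1*. Without void replicate 5 and DHT replicate 3 together, an alternative chosen after seeing the data, 278 genes were called higher, 157 past the fold limit and 9 of the pathway, and *Ncf1* was at 0.70. Relative to homeostatic microglia genes, *Cyba* ranged from 0.40 to 0.64 without each mouse, passing in 5 of 10 (exact permutation p up to 0.0635), and was 0.30 with *Csf1r*, *Aif1* and *Itgam* as reference; *Ncf1* was 0.24 with the median of the list (exact permutation p = 0.135) and 0.10 with those 3 genes, and did not pass with either. Of the 6 oxidase genes, *Cybb* and *Ncf4*, at 13 to 75 and 17 to 33 reads in void libraries, have the least depth behind them.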
